A study of Mus musculus with 24 samples.

Results

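Gsk3b, Ptgs2, Fgf7 and Hgf are genes described as targets of microRNAs that are cut from the long noncoding RNA Dnm3os, and Met encodes the receptor of the Hgf protein. These 5 genes were chosen by name, out of 20728 genes measured in whole mouse lung. The array carried 25 features (spots with a gene-specific probe) for them: 10 for Ptgs2, 10 for Met, 3 for Gsk3b, 1 for Fgf7 and 1 for Hgf. Each gene was represented by its feature with the highest mean over the 24 arrays, and the other features served as a check.

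The lungs came from C57BL/6 mice of 9 to 12 weeks. A gapmer is an antisense oligonucleotide that directs RNase H to cut its target RNA, and bleomycin is a drug whose injury leads to lung fibrosis in mice. Bleomycin lungs gave 5 samples with anti-Dnm3os gapmer 1, 5 with anti-Dnm3os gapmer 3 and 5 with a control gapmer. Lungs given PBS, the vehicle, gave 3 samples with gapmer 1, 3 with gapmer 3 and 3 with the control gapmer. Every group thus carried a gapmer, and no group was left without one. Dose, route, sex and the time from treatment to RNA extraction were unstated in the sources used here. No label ties a sample number to a named mouse, and each p-value therefore speaks of the variation among the arrays at hand, part of which may be technical. Levels are log2 intensities, as deposited, and a log2 difference of 1 is a doubling. The question behind the design was which genes move with bleomycin, and which of those differ when Dnm3os is knocked down.

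MicroRNAs are short RNAs that pair, mainly through bases 2 to 8 (the seed), with sites in messenger RNAs and lower their translation or stability. Dnm3os is a host transcript of miR-199a and miR-214. In lung fibroblasts, miR-214-3p has been described to target Gsk3b and Ptgs2, miR-199a-3p to target Fgf7 and Hgf, and miR-199a-5p to target Cav1, which encodes caveolin-1. GSK3B is a kinase of the complex that marks beta-catenin for degradation. Ptgs2 encodes COX-2, the inducible enzyme that starts prostaglandin synthesis. FGF7 (keratinocyte growth factor) and HGF are made by mesenchymal cells and act on epithelial cells, FGF7 through a splice form of FGFR2 and HGF through MET.

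The mature microRNAs of Dnm3os are shown because the described link between the knocked-down RNA and Gsk3b, Ptgs2, Fgf7 and Hgf runs through them. They are printed 5′ to 3′ from RefSeq (GRCm38.p6, chromosome 1, plus strand), with the seed in capitals. All 4 were matched by name.
mmu-miR-199a-5p: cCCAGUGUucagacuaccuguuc
mmu-miR-199a-3p: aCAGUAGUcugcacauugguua
mmu-miR-214-5p: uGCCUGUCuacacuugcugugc
mmu-miR-214-3p: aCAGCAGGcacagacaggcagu

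The seeds of miR-199a-3p and miR-214-3p had the same base at 5 of 7 positions, whereas those of miR-199a-5p and miR-199a-3p did so at 3 of 7. The hairpin of miR-199a began 191 bases after the start of Dnm3os (chr1:162217623-162225550) and that of miR-214 began 5745 bases after it. In the hairpins below, the capitals mark the mature arms.
Mir199a-2 hairpin: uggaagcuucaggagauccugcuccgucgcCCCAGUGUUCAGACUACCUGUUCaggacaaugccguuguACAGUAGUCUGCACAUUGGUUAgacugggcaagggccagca
Mir214 hairpin: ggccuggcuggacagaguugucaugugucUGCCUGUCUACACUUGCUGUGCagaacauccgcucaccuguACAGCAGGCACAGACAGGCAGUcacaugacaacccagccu

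Both arms of miR-199a are also made, with the same mature sequence, from Mir199a-1, and miR-199a-3p is identical to miR-199b-3p of Mir199b. The seed of miR-214-3p is shared with miR-761. Neither these microRNAs nor their binding sites in the 5 genes were measured here.

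In GRCm38.p6 the genes lie at chr16:38089001-38246084 (Gsk3b), chr1:150100031-150108234 (Ptgs2), chr2:126034658-126091185 (Fgf7), chr5:16553495-16619439 (Hgf) and chr6:17463349-17573980 (Met). Where each probe lies within its transcript was not analysed here. Gsk3b was the brightest, with a mean of 13.14 (percentile 92.8 of all genes), followed by Fgf7 at 9.90 (percentile 64.2) and Ptgs2 at 8.57 (percentile 50.3). Hgf averaged 7.87 (percentile 43.7) and Met 7.40 (percentile 39.4), the latter including a single high reading described below. Brightness depends on the probe, so these percentiles give no order of transcript abundance; all 5 genes lay above 6.11, the 25th percentile of gene means.

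The arrays had medians of 6.48 to 6.50 and RNA integrity numbers of 8.5 to 10. Dnm3os was lower than with the control gapmer in bleomycin lungs, by 0.72 on the log2 scale with gapmer 1 (adjusted p = 0.000186) and by 0.50 with gapmer 3 (adjusted p = 0.00293), both in limma's moderated test and by the brightest of its 3 features. In PBS lungs the differences of -0.45 (limma adjusted p = 0.0882) and -0.25 (limma adjusted p = 0.577) did not pass. Dnm3os was dim, with a mean of 6.35 (percentile 28.5), and PBS lungs with gapmers 1 and 3 averaged 5.889 and 6.095, below 6.11. Under the control gapmer it rose with bleomycin, from 6.34 to 6.90 (0.56, SE 0.12, limma adjusted p = 0.00112). Bleomycin lungs averaged 6.18 with gapmer 1 and 6.40 with gapmer 3. The other features of Dnm3os gave smaller differences in bleomycin lungs, of -0.28 (limma adjusted p = 0.041) and -0.21 (limma adjusted p = 0.124) by the second and of -0.01 and -0.09 by the dimmest. The 12 lung epithelial markers averaged 13.95 to 14.33 in bleomycin lungs and 14.10 to 14.30 in PBS lungs, with none below 6.11 in any group. A list of 10 skeletal muscle genes ranged widely within some groups, from 7.66 to 12.49 in bleomycin lungs with gapmer 3 and from 6.44 to 12.37 in PBS lungs with gapmer 3.

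By their brightest features, Hgf rose and Fgf7 fell with bleomycin under the control gapmer, which is 2 of 5 against 33.8% of all genes called in that comparison (limma's moderated test with the Benjamini-Hochberg adjustment across the 20728 genes, threshold 0.05). By the median of each gene's features, a measure added after seeing the data, Gsk3b and Met fell there too, which is 4 of 5 (1 higher and 3 lower) against 33.5% of all genes. With gapmer 3, bleomycin lowered Fgf7 alone by the brightest features (1 of 5, against 13.9% of all genes), and Fgf7 and Met by the feature medians (2 of 5, against 13.6%). With gapmer 1 none of the 5 passed for bleomycin against PBS, where 9.48% of all genes were called; at an unadjusted p under 0.05 they were 2 of 5, against 22.1% of all genes. In bleomycin lungs gapmer 1 raised Fgf7 alone (1 of 5, against 10.5% of all genes). Gapmer 3 moved none past the threshold there, where 13.2% of all genes were called, and 1 of 5 at the unadjusted p, against 25.6% of all genes. In PBS lungs none of the 5 passed with gapmer 1, against 1.11% of all genes, and none at the unadjusted p, against 17.0%. With gapmer 3 in PBS lungs none passed, against 0.0338% of all genes, and 3 of 5 did at the unadjusted p, against 9.76%. Met was among those 3 by a feature with a single outlying reading, described below (exact permutation p = 0.4). By its feature median Met differed there by 0.11 (limma adjusted p = 0.767). The change in bleomycin response passed for none of the 5, against 7.7% of all genes with gapmer 1 and 3.09% with gapmer 3. At the unadjusted p it was 1 of 5 with gapmer 1, against 23.7% of all genes, and 2 of 5 with gapmer 3, against 18.5%. Between gapmer 3 and gapmer 1 in bleomycin lungs 0.0% of all genes were called, and at the unadjusted p it was none of the 5, against 4.04%. By the feature medians the count of members called was the same as by the brightest features in the comparisons other than bleomycin against PBS under the control gapmer and under gapmer 3. The results below are about single genes.

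**Figure D1:**
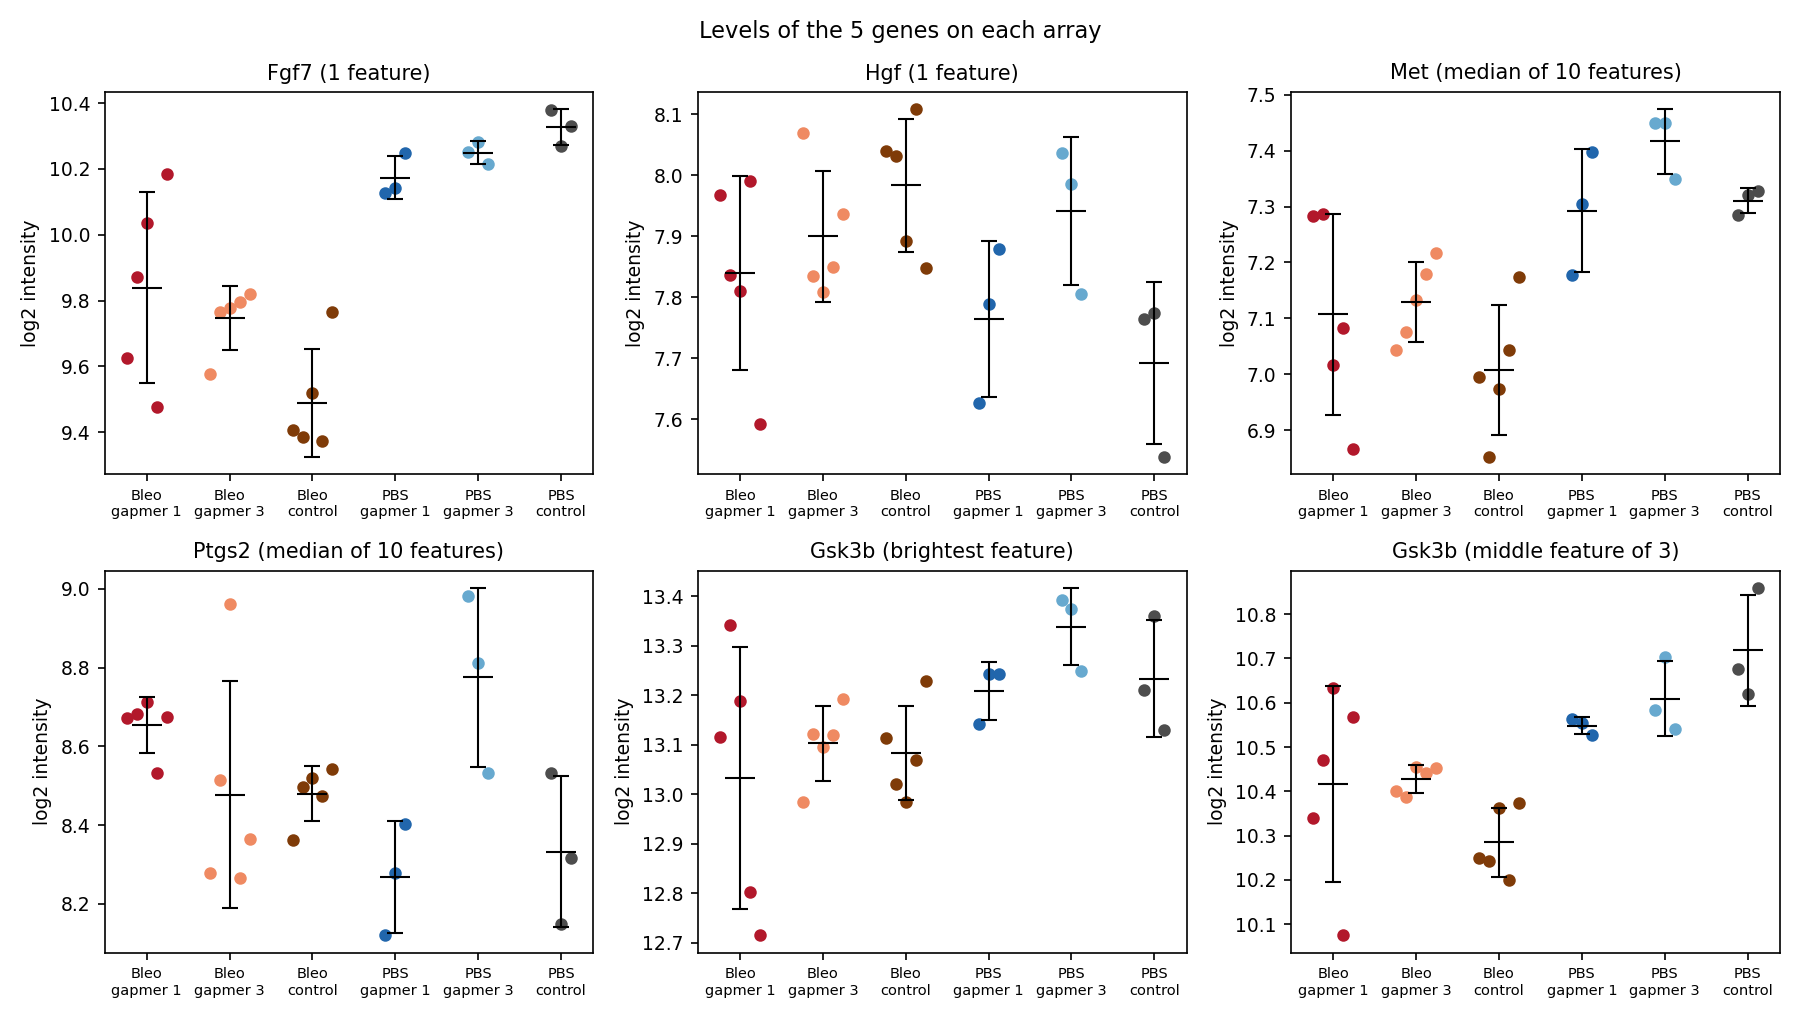
Levels (log2 intensity, y axis) of the 5 genes on each of the 24 arrays, by group (x axis), with Met and Ptgs2 as the median of their features and Gsk3b by its brightest and its middle feature. Points are arrays, and the horizontal mark and bars are the group mean and SD (n = 5 per bleomycin group, 3 per PBS group). Fgf7 sits between 9.37 and 9.76 in bleomycin lungs with the control gapmer and between 10.27 and 10.38 in PBS lungs with it.

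Fgf7 was the member with the clearest response. It fell to a mean of 9.49 ± 0.16 in bleomycin lungs with the control gapmer (SD, n = 5), against 10.33 ± 0.05 in PBS lungs with the control gapmer (SD, n = 3). The bleomycin arrays read 9.41, 9.38, 9.52, 9.37 and 9.76, and the PBS arrays 10.38, 10.27 and 10.33, so the highest bleomycin array lay well below the lowest PBS array. The difference was -0.84 (SE 0.12), a change of -44.0%, with a limma adjusted p of 1.04e-05. A two-sided exact permutation test over the samples gave p = 0.0179, the smallest that 5 against 3 samples allow. Whole lung RNA cannot tell fewer cells of a type from less RNA per cell. The 14 mesenchymal markers averaged 11.77 to 11.89 in these bleomycin lungs and 11.70 to 12.00 in the PBS lungs, with 2 higher, 4 lower and 1 below 6.11 (Wnt2, at 6.09 in the bleomycin lungs). Single markers moved in opposite directions within this average. Inmt averaged 15.25 in the bleomycin lungs and 17.07 in the PBS lungs, and Col1a2 averaged 16.56 and 14.87. Over the same lungs 9 of 10 endothelial markers fell, with an average of 11.56 to 11.83 in bleomycin lungs and 12.18 to 12.47 in PBS lungs, and 8 of 9 macrophage markers rose, with an average of 12.25 to 12.38 in bleomycin lungs and 10.72 to 10.90 in PBS lungs. The part of these markers in the Fgf7 difference was not tested.

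Fgf7 was also compared between bleomycin and PBS under each Dnm3os gapmer. With gapmer 3 the bleomycin lungs read 9.58, 9.77, 9.78, 9.80 and 9.82, against 10.25, 10.28 and 10.22 in PBS lungs. These groups did not overlap either, and the difference was -0.50 (SE 0.12, limma adjusted p = 0.00549, exact permutation p = 0.0179). With gapmer 1 the bleomycin lungs spread more, at 9.62, 9.87, 10.04, 9.48 and 10.19, against 10.13, 10.14 and 10.25 in PBS lungs. Here 1 bleomycin array lay among the PBS arrays, and the difference of -0.33 (SE 0.12) did not pass (limma adjusted p = 0.0828, exact permutation p = 0.125). Without bleomycin replicate 3 or replicate 5 of the gapmer 1 group, it passed, at -0.38 (adjusted p = 0.0487) and -0.42 (adjusted p = 0.0169).

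Set directly against the control gapmer in bleomycin lungs, Fgf7 rose with gapmer 1. The mean was 9.84 ± 0.29 with gapmer 1 and 9.49 ± 0.16 with the control gapmer (SD, n = 5 each), a difference of 0.35 (SE 0.10), or 27.4%, with a limma adjusted p of 0.0305. Only 3 of the 5 gapmer 1 arrays lay above every control array, and the exact permutation test gave p = 0.0635. This call rested on few arrays: it was lost without control gapmer replicate 1, 2, 3 or 4, or without gapmer 1 replicate 2, 3 or 5, with adjusted p between 0.0525 and 0.0965 and differences of 0.26 to 0.36. It was also lost when only the 2 groups compared entered the fit (adjusted p = 0.147).

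With gapmer 3 the Fgf7 mean was 9.75 ± 0.10, against 9.49 ± 0.16 with the control gapmer (SD, n = 5 each). The difference of 0.26 (SE 0.10) missed the threshold over all genes (limma adjusted p = 0.106), while 4 of 5 gapmer 3 arrays lay above every control array (exact permutation p = 0.0159). Without control gapmer replicate 5, the highest control array, it passed at 0.33 (adjusted p = 0.0336). The gapmers themselves differed by -0.09 for gapmer 3 minus gapmer 1, with a 95% interval of -0.31 to 0.12, so a difference of either sign remained possible.

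The change in bleomycin response was tested as an interaction. For Fgf7 it was 0.50 (SE 0.17, limma adjusted p = 0.0665) with gapmer 1 and 0.33 (SE 0.17, adjusted p = 0.292) with gapmer 3, so neither passed. The first passed without control gapmer replicate 5 (0.57), gapmer 1 replicate 1 (0.56) or gapmer 1 replicate 4 (0.59), all of them bleomycin arrays. In PBS lungs Fgf7 averaged 10.17 ± 0.07 with gapmer 1 and 10.25 ± 0.03 with gapmer 3, against 10.33 ± 0.05 with the control gapmer (SD, n = 3 each). These differences of -0.15 and -0.08 did not pass (limma adjusted p = 0.592 and 0.89), and the exact test over 3 against 3 samples cannot go below 0.1.

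The group levels of Fgf7, from the highest to the lowest, ran from PBS with the control gapmer through PBS with gapmer 3 and PBS with gapmer 1 to bleomycin with gapmer 1, bleomycin with gapmer 3 and bleomycin with the control gapmer. The steps within the PBS groups, 0.08 and 0.08, and between the 2 gapmers in bleomycin lungs, 0.09, were below the pooled SD between arrays of 0.17. The steps into the bleomycin groups, 0.33, and down to the control gapmer, 0.26, were above it.

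**Figure D2:**
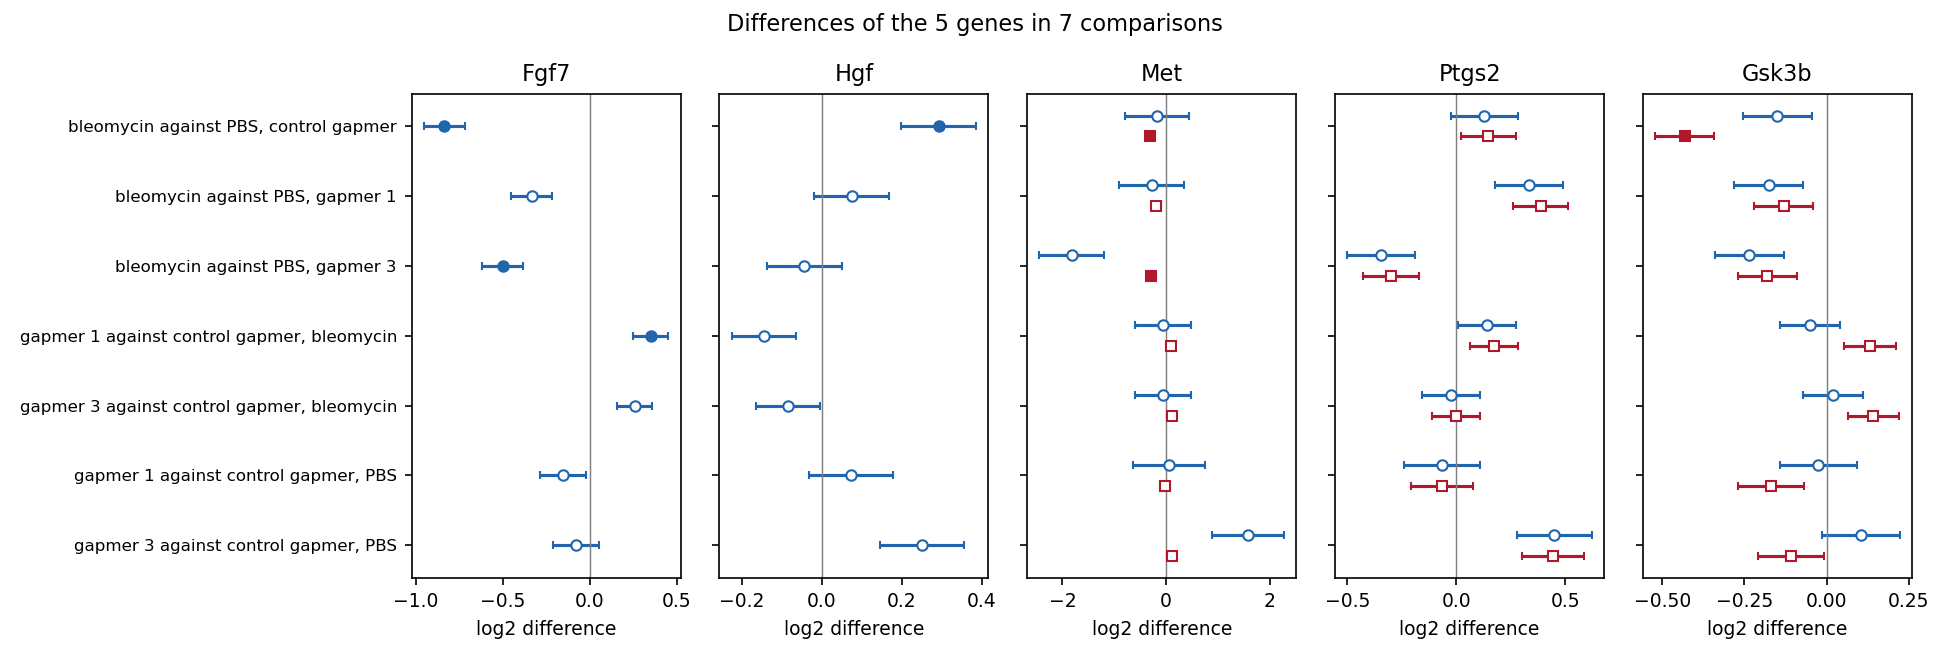
Log2 differences (x axis) with their standard errors for the 5 genes in 7 comparisons (y axis). Blue circles are the brightest feature and red squares, for genes with several features, the median of all features; filled symbols passed the limma threshold. Fgf7 is at -0.84 for bleomycin against PBS under the control gapmer and at 0.35 and 0.26 for gapmers 1 and 3 in bleomycin lungs.

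Of 15 further genes of the FGF7 pathway, 9 fell and 2 rose with bleomycin under the control gapmer, where 33.8% of all genes were called, and the median was -0.43 against -0.02 over all genes. Fgf1, a broadly acting FGF ligand, fell by 1.21 on the log2 scale (SE 0.16, adjusted p = 3.37e-06). Fgf10, the other mesenchymal ligand of the same receptor form, had a difference of -0.52 (SE 0.07, adjusted p = 3.46e-06) and Fgfr2, the receptor, one of -0.43 (SE 0.09). Fgfbp1, which releases FGFs from the matrix, had a difference of -0.87 (SE 0.11), and Etv5, a transcription factor induced by FGF signalling, one of -0.93 (SE 0.16). Etv4, the close relative of Etv5, went the other way, with 1.92 (SE 0.24, adjusted p = 2.61e-06).

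Fgf10 is given array by array because it is the ligand closest to Fgf7. It read 7.82, 7.83, 7.80, 7.75 and 7.97 in bleomycin lungs with the control gapmer, against 8.44, 8.28 and 8.35 in PBS lungs with it. In bleomycin lungs it read 8.03, 8.07, 8.27, 8.01 and 8.08 with gapmer 1 and 8.04, 8.11, 8.19, 8.18 and 8.13 with gapmer 3. Every array of either gapmer was above every control array in bleomycin lungs, with differences of 0.26 (SE 0.06, limma adjusted p = 0.00623) and 0.30 (SE 0.06, adjusted p = 0.00153) and an exact permutation p of 0.0079 each, the smallest that 5 against 5 samples allow. Both calls held without each array in turn.

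The change in bleomycin response of Fgf10 also passed, at 0.51 (SE 0.10, adjusted p = 0.00465) with gapmer 1 and 0.38 (SE 0.10, adjusted p = 0.032) with gapmer 3; the second was lost without any of 9 single arrays, with adjusted p up to 0.0964. PBS lungs with gapmer 1 had lower Fgf10 values, at 8.10, 8.05 and 8.18, than the 3 PBS samples with the control gapmer. This lower baseline enters the response change with gapmer 1 (difference -0.25, limma adjusted p = 0.0917).

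Over the 15 pathway genes, 4 rose and 1 fell with gapmer 1 in bleomycin lungs, and 3 rose and 2 fell with gapmer 3, where 10.5% and 13.2% of all genes were called. The medians were 0.15 and 0.12, against 0.02 and 0.01 over all genes. Fgf1 was 0.60 (SE 0.14, adjusted p = 0.00619) and 0.55 (SE 0.14, adjusted p = 0.00894) higher, and both calls held without each array in turn. Etv5 was 0.53 and 0.47 higher (adjusted p = 0.0163 and 0.028) and Etv4 had differences of -0.76 and -0.89 (adjusted p = 0.0221 and 0.0066). Fgfr2 was 0.31 higher with gapmer 1 (adjusted p = 0.0163). Of these, the Etv5 calls were lost without any of 3 and 5 single arrays, the gapmer 1 calls of Etv4 and Fgfr2 without any of 5 and 2, and the gapmer 3 call of Etv4 held without each array in turn. No pathway gene passed in PBS lungs with either gapmer. The comparisons share the bleomycin lungs with the control gapmer, so opposite signs in them are not separate observations. In the same 2 comparisons 2 and 4 of the 10 endothelial markers rose, 5 and 4 of the 12 epithelial markers rose with 0 and 2 lower, and 2 of 4 red cell markers rose in each. Of the 14 mesenchymal markers 2 and 3 rose, with 1 lower in each. Tcf21 averaged 11.14 with gapmer 1 and 11.18 with gapmer 3, against 10.50 with the control gapmer. Col1a2 averaged 15.99 and 16.02, against 16.56. The part of these markers in the differences was not tested.

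**Figure D3:**
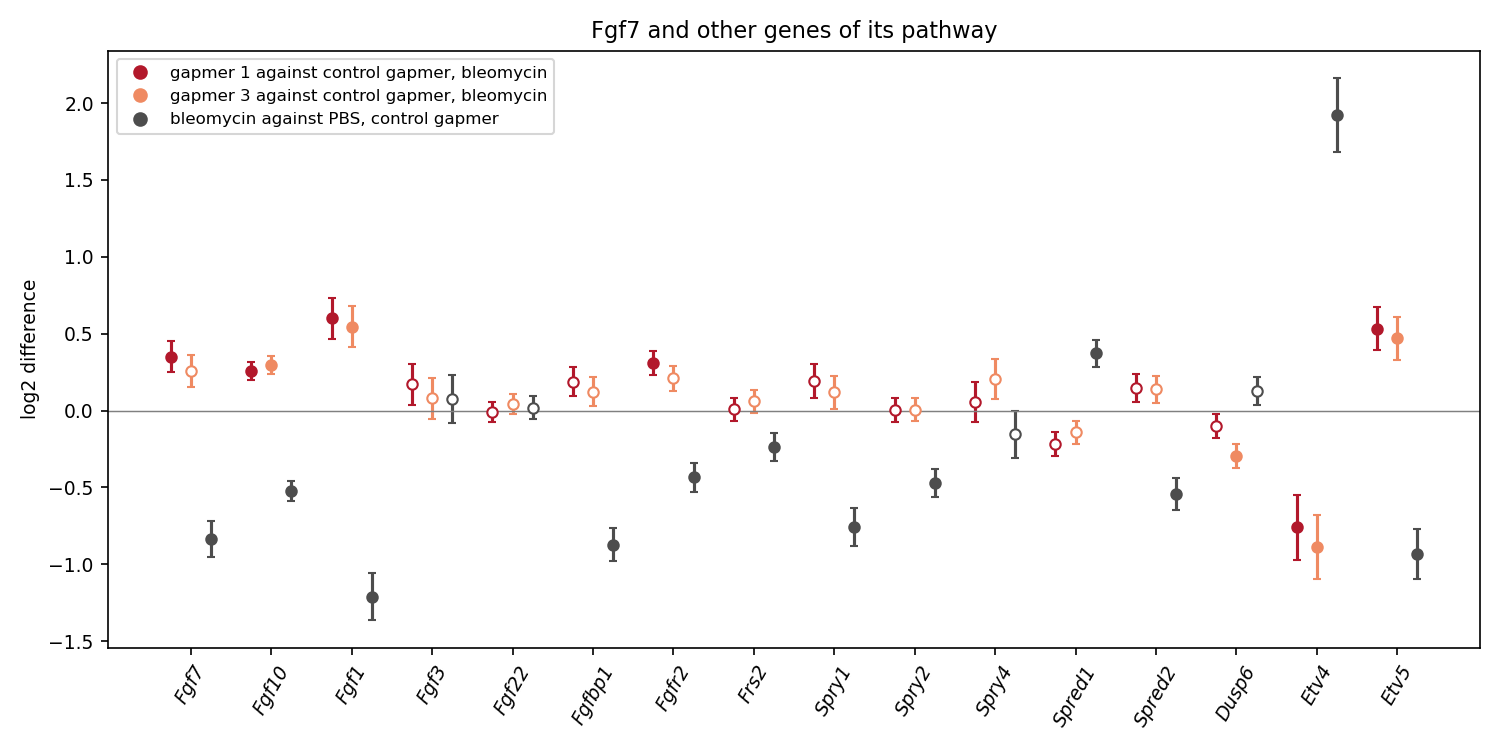
Log2 differences (y axis) with standard errors for Fgf7 and 15 genes of its pathway (x axis) for each gapmer against the control gapmer in bleomycin lungs and for bleomycin against PBS under the control gapmer. Filled points passed the limma threshold. Etv4 is at 1.92 for bleomycin, opposite to Etv5 at -0.93.

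Hgf, the other growth factor of the set, rose with bleomycin under the control gapmer. It read 8.04, 8.03, 7.89, 8.11 and 7.85 in bleomycin lungs, against 7.76, 7.77 and 7.54 in PBS lungs. The groups did not overlap, and the means were 7.98 ± 0.11 (SD, n = 5) in bleomycin lungs and 7.69 ± 0.13 (SD, n = 3) in PBS lungs. The difference was 0.29 (SE 0.09), or 22.4%, with a limma adjusted p of 0.0191 and an exact permutation p of 0.0357. The call was lost without replicate 3 of the PBS lungs, the lowest array (0.21, adjusted p = 0.142), and with the skeletal muscle level as a covariate, a fit chosen after seeing the data (0.24, adjusted p = 0.0714). The 10 skeletal muscle genes averaged 9.85 to 10.02 in these bleomycin lungs and 11.35 to 12.48 in the PBS lungs.

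Under the Dnm3os gapmers Hgf did not pass in any comparison. Bleomycin lungs read 7.97, 7.84, 7.81, 7.99 and 7.59 with gapmer 1, against 7.63, 7.79 and 7.88 in PBS lungs with gapmer 1. Bleomycin lungs with gapmer 3 read 8.07, 7.83, 7.81, 7.85 and 7.94, against 8.04, 7.99 and 7.81 in PBS lungs with gapmer 3. The groups overlapped in both cases, with differences of 0.08 (95% interval -0.12 to 0.27) and -0.04 (95% interval -0.24 to 0.15). Against the control gapmer in bleomycin lungs the differences were -0.14 with gapmer 1 (95% interval -0.31 to 0.03) and -0.08 with gapmer 3 (95% interval -0.25 to 0.09), and the adjusted p were 0.31 and 0.581 in limma. In PBS lungs all 3 arrays with gapmer 3 were above all 3 with the control gapmer, by 0.25 on average (SE 0.11, limma adjusted p = 0.442, exact permutation p = 0.1). The highest and the lowest group of Hgf differed by 0.29, and each step between neighbouring groups was at most 0.08, below the SD of 0.13 between arrays.

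Met, the receptor, could not be read from its brightest feature. That feature read 12.06 on replicate 1 of the PBS lungs with gapmer 3, and 6.78 to 7.63 on the other 23 arrays. The 9 other Met features read 7.24 to 7.59 on the same array. By this one feature no comparison passed, and the SE of the difference between bleomycin and PBS under the control gapmer was 0.63. Such single readings were rare among the 276 genes with 10 features. Each feature was first centred on its own median over the arrays. After that, 29 of 66240 values (0.0438%) lay more than 2 log2 units from the median of the gene's features on that array. In 16 of the 27 genes concerned they fell on the brightest feature, and a single high reading itself raises the mean by which features were ranked. Met was therefore also summarised by the median of its 10 features on each array, a choice made after seeing the data.

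By that median, Met fell with bleomycin. It read 6.995, 6.85, 6.97, 7.04 and 7.17 in bleomycin lungs with the control gapmer, against 7.29, 7.32 and 7.33 in PBS lungs with it. No bleomycin array reached the PBS arrays. The difference was -0.30 (SE 0.09), a change of -19.0%, with a limma adjusted p of 0.00795 and an exact permutation p of 0.0179; by feature medians 33.5% of all genes were called. All 10 features, the brightest included, were lower, by -0.16 to -0.39, and 3 of them passed when each feature was tested. The features were read on the same arrays and are not separate observations of the lungs. Whether they carry different probes was not analysed here. With gapmer 3 the medians were 7.04, 7.08, 7.13, 7.18 and 7.22 in bleomycin lungs, against 7.45, 7.45 and 7.35 in PBS lungs, a difference of -0.29 (SE 0.09, limma adjusted p = 0.026, against 13.6% of all genes called). With gapmer 1 the difference was -0.19 (SE 0.09, limma adjusted p = 0.197), and the groups overlapped.

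In bleomycin lungs the feature median of Met averaged 7.11 ± 0.18 with gapmer 1 and 7.13 ± 0.07 with gapmer 3, against 7.01 ± 0.12 with the control gapmer (SD, n = 5 each). These differences of 0.10 and 0.12 (SE 0.07 each) did not pass (limma adjusted p = 0.468 and 0.323). The change in bleomycin response was 0.12 (SE 0.12) with gapmer 1 and 0.02 (SE 0.12) with gapmer 3, and neither passed. Thus with bleomycin under the control gapmer the ligand Hgf rose while the receptor Met fell by its feature median. Met is expressed by lung epithelial and endothelial cells. Among the 12 epithelial markers 3 rose and 4 fell in that comparison, among the 10 endothelial markers 9 fell, and their part in the Met difference was not tested.

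**Figure D4:**
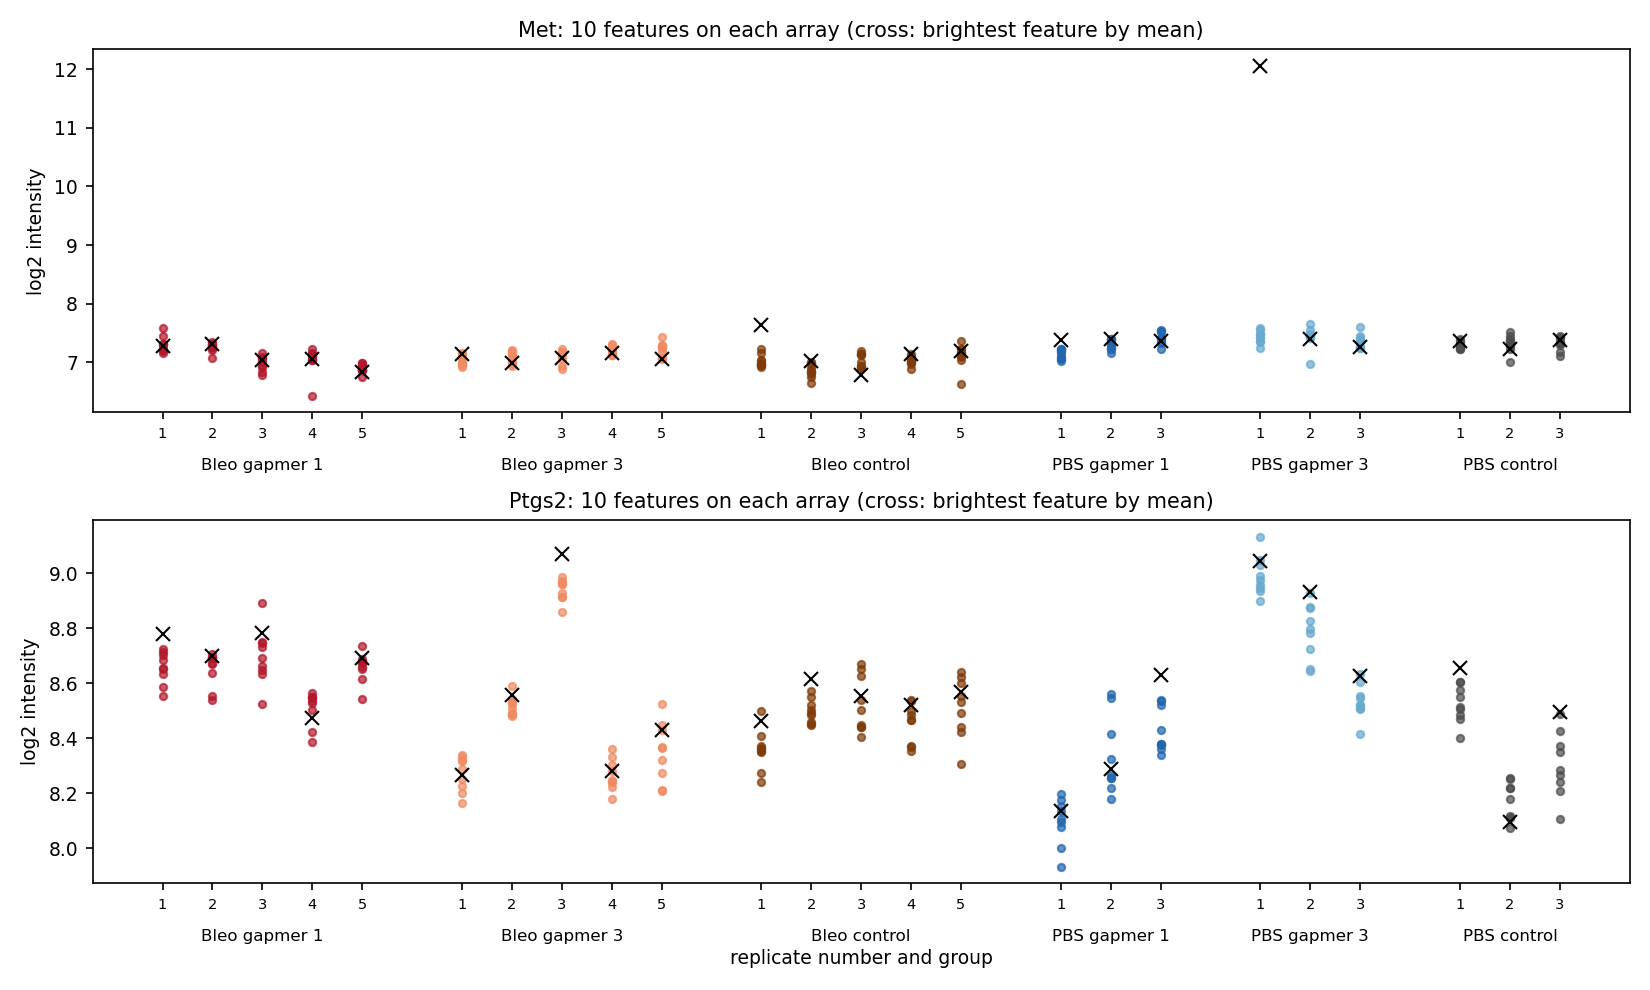
Log2 intensity (y axis) of the 10 features of Met (top) and of Ptgs2 (bottom) on each array (x axis), with the brightest feature by mean as a cross. A single Met feature reads 12.06 on replicate 1 of the PBS lungs with gapmer 3, where the other 9 read 7.24 to 7.59; the Ptgs2 features move together from array to array.

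Of 20 further genes of HGF activation and MET signalling, 6 rose and 4 fell with bleomycin under the control gapmer, against 33.8% of all genes called (median 0.15, against -0.02 over all genes). The rises included 2 proteases described to activate HGF, St14 (matriptase; 0.70, SE 0.10, adjusted p = 1.73e-05) and Plat (tissue plasminogen activator; 0.64, SE 0.13, adjusted p = 0.000568). Klkb1, plasma prekallikrein, was lower by a difference of -0.48 (SE 0.12), and Nrp1, a co-receptor of several growth factors, by one of -0.59 (SE 0.12). In bleomycin lungs Plat was lower with both gapmers, by differences of -0.40 (adjusted p = 0.0258) with gapmer 1 and -0.47 (adjusted p = 0.00847) with gapmer 3. The second held without each array in turn, and the first was lost without any of 6 single arrays. The remaining call with gapmer 1 was Gab1, an adaptor of the MET receptor (0.36, adjusted p = 0.0174). With gapmer 3 they were Nrp1 (0.33, adjusted p = 0.0403), Plau, which encodes urokinase (-0.46, adjusted p = 0.0449), and Spint2, an inhibitor of the activating proteases (0.20, just under the threshold). Gab1 was lost without any of 4 single arrays, and Nrp1, Plau and Spint2 without any of 8 each. Of the 20 genes, 1 rose and 1 fell with gapmer 1 in bleomycin lungs, against 10.5% of all genes called. With gapmer 3 there, 2 rose and 2 fell, against 13.2%. No gene of the list passed in PBS lungs.

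Gsk3b gave different answers by feature. The brightest feature averaged 13.08 ± 0.09 in bleomycin lungs with the control gapmer (SD, n = 5) and 13.23 ± 0.12 in PBS lungs with it (SD, n = 3). That difference of -0.15 had a 95% interval of -0.37 to 0.07. The second feature, at a lower brightness, read 10.25, 10.24, 10.36, 10.20 and 10.37 in the bleomycin lungs, against 10.68, 10.62 and 10.86 in the PBS lungs. Here the groups did not overlap, and the difference was -0.43 (SE 0.09, limma adjusted p = 0.000748, exact permutation p = 0.0179). The dimmest feature differed by -0.04 (SE 0.12, adjusted p = 0.863). Since the second feature lay between the others on every array, it is also the median of the 3. Which part of the transcript each feature reads was not analysed here, and the files give no further reason to prefer one.

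With gapmer 3 the brightest Gsk3b feature was lower on all 5 bleomycin arrays than on all 3 PBS arrays, by a difference of -0.24 (SE 0.11, limma adjusted p = 0.157, exact permutation p = 0.0179). With only those 2 groups in the fit it passed (adjusted p = 0.0465). With gapmer 1 it ranged from 12.72 to 13.34 in bleomycin lungs, a wider spread than in any other group. Against the control gapmer in bleomycin lungs, it differed by -0.05 with gapmer 1 (95% interval -0.24 to 0.14) and by 0.02 with gapmer 3 (95% interval -0.17 to 0.21). The second feature differed by 0.13 (limma adjusted p = 0.342) and 0.14 (limma adjusted p = 0.272). All 5 gapmer 3 arrays lay above all 5 control arrays by that feature, from 10.39 to 10.46 with gapmer 3 and from 10.20 to 10.37 with the control gapmer (exact permutation p = 0.0079). In PBS lungs the gapmer differences of the brightest feature were -0.03 and 0.11, and neither passed. The steps between neighbouring groups of the brightest feature were at most 0.11, below the SD of 0.15 between arrays. By the feature median, here the second feature, the step down to bleomycin with the control gapmer was 0.132, above its SD of 0.122. The change in bleomycin response with gapmers 1 and 3 was -0.025 and -0.086 by the brightest feature. By the feature median it was 0.30 and 0.25 (limma adjusted p = 0.15 and 0.298), so the sign differed by feature and none passed.

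Among 20 further genes of the GSK3 and beta-catenin pathway, 7 fell and 1 rose with bleomycin under the control gapmer, against 33.8% of all genes called (median -0.20, against -0.02 over all genes). Btrc, the ubiquitin ligase subunit that recognises phosphorylated beta-catenin, had a difference of -0.77 (SE 0.11, adjusted p = 8.29e-06). Nkd1, an inhibitor of Wnt signalling, had one of -0.66 (SE 0.12, adjusted p = 0.000177), and Lrp5, a Wnt co-receptor, one of -0.34 (SE 0.09, adjusted p = 0.00597), which was lost without replicate 3 of the PBS lungs (-0.22, adjusted p = 0.083). Lef1, a transcription factor that binds beta-catenin, was 0.32 higher (SE 0.12, adjusted p = 0.0335), a call lost without any of 5 single arrays, all 3 PBS arrays among them.

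In bleomycin lungs Lef1 had the largest change of the list with either gapmer. It read 9.68, 9.83, 10.29, 9.77 and 9.77 with gapmer 1 and 9.89, 9.79, 9.69, 9.80 and 9.88 with gapmer 3, against 10.49, 10.71, 10.90, 10.44 and 10.43 with the control gapmer. Every gapmer array was below every control array, and the differences were -0.73 (SE 0.10, adjusted p = 8.22e-05) and -0.79 (SE 0.10, adjusted p = 2.32e-05). Its bleomycin response differed from that under the control gapmer by -0.71 (adjusted p = 0.0131) and -0.82 (adjusted p = 0.00952), and all 4 calls held without each array in turn. Ctnnb1, which encodes beta-catenin, was 0.19 and 0.22 higher (adjusted p = 0.0293 and 0.00801), and Nkd1 was 0.39 and 0.42 higher (adjusted p = 0.0198 and 0.01). Their gapmer 3 calls held without each array in turn, while the gapmer 1 calls were lost without any of 6 and 4 single arrays. These 3 genes were all that passed in the list of 20 with either gapmer, against 10.5% and 13.2% of all genes. None of the list passed in PBS lungs.

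Ptgs2 did not pass in any comparison, and its 10 features agreed closely. Their means lay between 8.46 and 8.57, and the SD among them on 1 array had a median of 0.07, against 0.18 between arrays of a group for their median, so the spread lay between samples and not between spots. By the feature median, bleomycin lungs with gapmer 1 read 8.67, 8.68, 8.71, 8.53 and 8.67, bleomycin lungs with gapmer 3 read 8.28, 8.52, 8.96, 8.27 and 8.37, and bleomycin lungs with the control gapmer read 8.36, 8.50, 8.52, 8.47 and 8.54. PBS lungs read 8.12, 8.28 and 8.40 with gapmer 1, 8.98, 8.81 and 8.53 with gapmer 3, and 8.53, 8.15 and 8.32 with the control gapmer. Replicates 1 and 2 of the PBS lungs with gapmer 3 and replicate 3 of the bleomycin lungs with gapmer 3 were the 3 highest arrays, and replicate 1 of the PBS lungs with gapmer 1 was the lowest.

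For bleomycin against PBS, the brightest Ptgs2 feature differed by 0.13 under the control gapmer (95% interval -0.19 to 0.45), by 0.33 with gapmer 1 (95% interval 0.01 to 0.66, limma adjusted p = 0.204) and by -0.34 with gapmer 3 (95% interval -0.67 to -0.02, limma adjusted p = 0.157). By the feature median the gapmer 1 groups did not overlap (0.39, SE 0.13, limma adjusted p = 0.0591, exact permutation p = 0.0179). Without replicate 3 of the bleomycin lungs, the gapmer 3 difference passed at -0.48 (adjusted p = 0.0138). In bleomycin lungs Ptgs2 differed from the control gapmer by 0.14 with gapmer 1 (95% interval -0.14 to 0.42) and by -0.02 with gapmer 3 (95% interval -0.30 to 0.26). By the feature median the gapmer 1 difference was 0.17 (SE 0.11, limma adjusted p = 0.373), with 4 of 5 gapmer 1 arrays above every control array (exact permutation p = 0.0159). The interaction was 0.21 with gapmer 1 and -0.47 with gapmer 3, with adjusted p of 0.618 and 0.249 in limma. In PBS lungs gapmer 3 was 0.45 higher than the control gapmer (SE 0.17), which did not pass (limma adjusted p = 0.411).

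The prostanoid genes around Ptgs2 moved in both directions with bleomycin. Of 21 further genes of prostanoid synthesis, breakdown and reception, 8 rose and 4 fell under the control gapmer, against 33.8% of all genes called (median 0.04, against -0.02 over all genes). Ptgs1, the other cyclooxygenase, rose by 0.83 (SE 0.08), and it also rose with bleomycin under gapmer 1 (0.56) and gapmer 3 (0.75). Tbxas1, thromboxane synthase, was 1.11 higher (SE 0.13, adjusted p = 6.67e-07), and Ptger4, a receptor of prostaglandin E2, was 1.37 higher (SE 0.19, adjusted p = 9.76e-06). Hpgd, the enzyme that inactivates prostaglandin E2, had a difference of -1.19 (SE 0.13, adjusted p = 5.01e-07), and Ptgfr, the receptor of prostaglandin F2 alpha, one of -1.05 (SE 0.11, adjusted p = 3.4e-07). These 5 calls held without each array in turn.

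In bleomycin lungs Ptgfr read 7.51, 7.50, 7.73, 7.42 and 7.91 with gapmer 1 and 7.71, 7.64, 7.77, 7.51 and 7.58 with gapmer 3, against 7.14, 6.71, 7.18, 6.89 and 7.12 with the control gapmer. No gapmer array overlapped the control arrays, with differences of 0.61 (SE 0.10, adjusted p = 0.000392) and 0.63 (SE 0.10, adjusted p = 0.000149). Hpgd was 0.54 (SE 0.11, adjusted p = 0.00382) and 0.63 (SE 0.11, adjusted p = 0.000694) higher, and these 4 calls held without each array in turn. Ptger4 had differences of -0.53 and -0.55 (adjusted p = 0.0441 and 0.0308), lost without any of 7 and 6 single arrays. Ptger1, another receptor of prostaglandin E2, had a difference of -0.47 with gapmer 3 (adjusted p = 0.0145). The counts over the list of 21 were 2 higher and 1 lower with gapmer 1, and 2 higher and 2 lower with gapmer 3. Over all genes 10.5% and 13.2% were called. The 9 measured macrophage markers had medians of -0.19 and -0.20 in the same comparisons, with 1 of 9 lower with gapmer 1 and none passing with gapmer 3. The epithelial markers (5 and 4 of 12 higher, 0 and 2 lower) and the endothelial markers (2 and 4 of 10 higher) rose in part in the same comparisons, and the part of these markers was not tested.

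Ptger3, a prostaglandin E2 receptor coupled to inhibitory G proteins, was the one gene of all pathway lists called in PBS lungs. It read 7.34, 6.92 and 7.21 with gapmer 1 and 6.73, 6.75 and 7.18 with gapmer 3, against 7.64, 7.96 and 7.89 with the control gapmer. No gapmer array overlapped the control arrays, and the differences were -0.67 (SE 0.14, limma adjusted p = 0.0259) and -0.94 (SE 0.14, limma adjusted p = 0.00708). It was 1 of 7 genes called with gapmer 3 in PBS lungs and 1 of 230 with gapmer 1. Both comparisons use the same 3 control samples. The exact permutation test over 3 against 3 samples gave 0.1, the smallest possible. The gapmer 1 call was lost without any of 4 single arrays (adjusted p up to 0.126) and the gapmer 3 call without any of 3 (adjusted p up to 0.088). In bleomycin lungs Ptger3 differed from the control gapmer by -0.07 and -0.11, and neither difference passed. Its change in bleomycin response was 0.60 (SE 0.18, adjusted p = 0.0402) with gapmer 1 and 0.83 (SE 0.18, adjusted p = 0.0147) with gapmer 3.

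**Figure D5:**
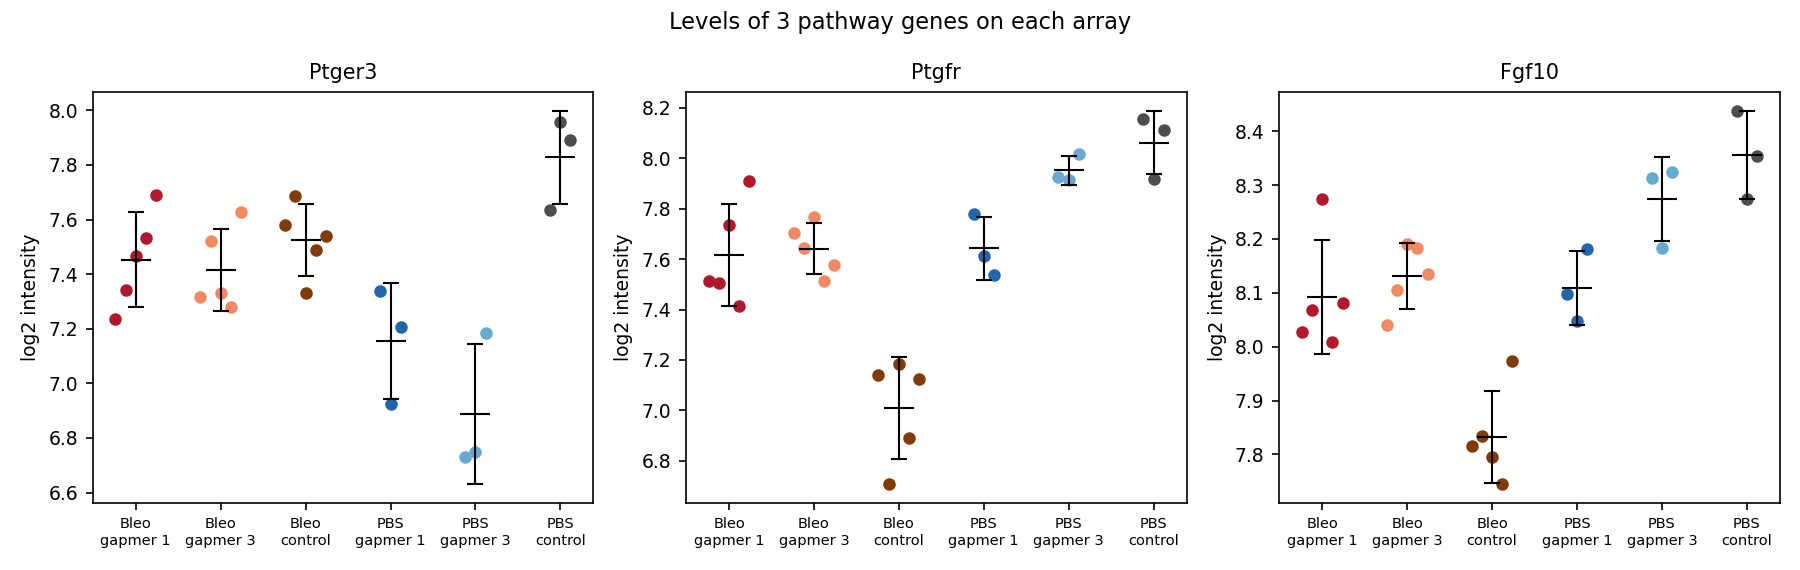
Levels (log2 intensity, y axis) of Ptger3, Ptgfr and Fgf10 on each array, by group (x axis), with the group mean and SD as mark and bars (n = 5 per bleomycin group, 3 per PBS group). Ptger3 is highest in PBS lungs with the control gapmer; Ptgfr and Fgf10 are lowest in bleomycin lungs with the control gapmer.

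Other genes described as targets of the same microRNAs were mixed. Of 21 measured, 5 rose and 6 fell with bleomycin under the control gapmer, against 33.8% of all genes called (median -0.07, against -0.02 over all genes). In bleomycin lungs 2 rose and 2 fell with gapmer 1 (median 0.07), and 3 rose and 3 fell with gapmer 3 (median 0.12). There 10.5% and 13.2% of all genes were called, and the medians over all genes were 0.02 and 0.01. Smarca2, a chromatin remodelling ATPase, had a difference of -1.02 with bleomycin (SE 0.15, adjusted p = 1.12e-05) and was 0.45 and 0.44 higher with the gapmers (adjusted p = 0.0253 and 0.0235), calls lost without any of 6 and 5 single arrays. Ezh2, a histone methyltransferase, was 0.77 higher with bleomycin (adjusted p = 2.87e-05) and Sirt1, a deacetylase, had a difference of -0.76 (adjusted p = 0.00018). Ezh2 had a difference of -0.36 with gapmer 3 (adjusted p = 0.021), lost without any of 3 single arrays. Hif1a, the hypoxia-inducible factor, had differences of -0.32 and -0.34 with the gapmers (adjusted p = 0.0329 and 0.0187), lost without any of 7 and 2. Fgfr1, a receptor of FGFs, had one of -0.23 with gapmer 1 (adjusted p = 0.0129), which was lost by the mean of its features (adjusted p = 0.171).

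Cav1, the miR-199a-5p target, is set beside Fgf7. Bleomycin lungs with the control gapmer were lower than PBS lungs by a difference of -0.94 (SE 0.14, adjusted p = 1.45e-05), and in bleomycin lungs Cav1 was 0.36 higher with gapmer 1 (limma adjusted p = 0.0529) and 0.45 higher with gapmer 3 (limma adjusted p = 0.0135). For Cav1 gapmer 3 thus passed and gapmer 1 did not, for Fgf7 gapmer 1 passed and gapmer 3 did not, and the gapmers did not differ from each other beyond the error for either gene. The Cav1 call with gapmer 3 was at the threshold without control gapmer replicate 2 (0.40, adjusted p = 0.0502).

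By the smallest root mean square difference of centred means over the 6 groups, among genes at or above the median level, the genes most like Fgf7 were Epn2 (0.026), Slc35g2 (0.031) and Ces1d (0.032). Those most like Hgf were Wipi1 (0.023), Tirap (0.027) and Ppm1g (0.028). These are descriptions over 6 group means.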

How the data were processed

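Total RNA of whole lung (TRIzol), labelled with Cy3 by an Agilent Low RNA input QuickAmp protocol per the labels, was measured on 24 one-colour Agilent arrays of 62976 features. The values used are log2 intensities as deposited, with array medians of 6.48 to 6.50 and a common distribution. The submitters' processing notes name limma, without a version. The sources used here leave the background correction, slides and scan dates unstated. Brightness, not depth, limits precision.

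Of the features, 31465 had 1 gene symbol in the platform annotation and 31511 none; symbols were updated through RefSeq tables (18550 current, 1969 by accession, 250 by synonym, 5 kept). Each of 20728 genes was represented by its feature with the highest mean. Limma 3.58.1 in R 4.3.3 fitted 6 group means with lmFit and eBayes (18 residual and 3.26 prior degrees of freedom), with Benjamini-Hochberg adjustment over all genes and calls under 0.05. Exact permutation tests are two-sided, unadjusted, and run over samples. The fit was checked on simulated data. The members, gene lists and alternatives were chosen with earlier results of these data known. Genes were named by rule: the 5 members, Dnm3os, Cav1, up to 4 called genes per list and comparison by size of change, and the 3 genes most like each called member; Fgf10, Fgfr2 and Ptgs1 are also described in comparisons where that rule did not name them. Deviations from group means of same-numbered samples in different groups had a median correlation of 0.071 (23 of 51 pairs over 0.1). For other numbers it was -0.033 (47 of 186 over 0.1). The main fit did not use the numbers as pairs, because not every same-numbered pair was over 0.1. That rule cannot exclude a factor shared by same-numbered samples. With the number as a block, some Fgf7 results that missed the threshold in the main fit passed, as given in the closing section. Alternatives are given in the closing section.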

Additional observations from a re-analysis of the deposited data

Results flagged for a closer look

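Results are listed here where 1 array stood apart from the other 4 of its group (Dixon's test, which marks about 1 group in 20 by chance; 138 combinations of gene and group were examined) or where the bleomycin response differed between gapmers in limma's interaction test. Among the 5 genes, Fgf7 on replicate 1 of the bleomycin lungs with gapmer 3 was the lowest of its group, at 9.58, against 9.77 to 9.82 on the others. Fgf10 (8.27, against 8.01 to 8.08) and Lef1 (10.29, against 9.68 to 9.83) were both highest on replicate 3 of the bleomycin lungs with gapmer 1. Lrp5 was highest on replicate 5 of the bleomycin lungs with the control gapmer (10.02, against 9.87 to 9.88) and on replicate 3 of those with gapmer 3 (10.13, against 9.92 to 9.96). Mst1r, a receptor related to Met, was highest on replicate 2 of the bleomycin lungs with the control gapmer (9.52, against 9.31 to 9.34).

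The bleomycin response with gapmer 1, minus that with the control gapmer, was 0.51 for Fgf10, 0.84 for Fgf1, 0.60 for Ptger3, 1.03 for Ptgfr, 0.69 for Hpgd, -0.47 for Abcc4 (an exporter of prostanoids), -0.71 for Lef1, 0.60 for Nkd1, 0.35 for Mst1r, 0.79 for Smarca2 and 0.37 for Jag1 (a Notch ligand). With gapmer 3 it was 0.38 for Fgf10, 0.83 for Ptger3, 0.74 for Ptgfr and -0.82 for Lef1. In PBS lungs Ptgfr differed from the control gapmer by -0.42 with gapmer 1 (limma adjusted p = 0.0849) and by -0.11 with gapmer 3 (limma adjusted p = 0.807). These baseline differences enter its response changes. Without each array in turn, only the values of Fgf10, Ptgfr and Lef1 with gapmer 1, and of Lef1 and Ptger3 with gapmer 3, kept an adjusted p below or at 0.05 in every case.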

How the results depend on the processing

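Of 50 results for the 5 genes (10 comparisons each), 39 kept their call under every alternative fit and feature, and 43 without each array in turn. Median centring, a new quantile normalisation, a variance trend and a robust variance changed no call of the 5 genes. Met for bleomycin against PBS under gapmer 3 passed without dim genes (-1.82) and by the mean of features (-0.44), which both include the single bright reading. It also passed by the median of features (-0.29) and by features 2, 5, 6 and 9 (-0.30, -0.30, -0.32 and -0.38). Under the control gapmer Met passed by the mean (-0.28) and the median (-0.30) of features and by features 4, 5 and 6 (-0.39, -0.35 and -0.34). Gsk3b passed there by the median of features and by feature 2 (-0.43 both), and against PBS under gapmer 3 with only the groups compared (-0.24). Ptgs2 against PBS under gapmer 1 passed by feature 8 (0.43). With array weights Fgf7 passed for bleomycin with gapmer 1 (-0.32), for gapmer 3 in bleomycin lungs (0.33) and for both response changes (0.58 and 0.43). With only the groups compared, the call of Fgf7 with gapmer 1 in bleomycin lungs was lost (0.35). Hgf with the skeletal muscle covariate was 0.24. The cause of these shifts was not tested beyond the features and arrays named.

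With the replicate number as a block, Fgf7 passed for bleomycin against PBS with gapmer 1 (-0.36, limma adjusted p = 0.0252). It also passed for gapmer 3 in bleomycin lungs (0.26, adjusted p = 0.0355) and for the response change with gapmer 1 (0.50, adjusted p = 0.022). The block gave 423 called genes for gapmer 1 in PBS lungs and 1115 for the response change with gapmer 3. It changed no other call of the 5 genes.

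Counts of called genes moved by over 1.5 times as follows. Array weights gave 4479 for bleomycin with gapmer 3, 4231 and 5121 for gapmers 1 and 3 in bleomycin lungs, 732 for gapmer 1 in PBS lungs, and 3251 and 1763 for the response changes. With only the groups compared the counts were 485 for bleomycin with gapmer 1, 1278 for gapmer 1 in bleomycin lungs, and 68 and 1 for gapmers 1 and 3 in PBS lungs. With the RNA integrity number as a covariate they were 898 for bleomycin with gapmer 1, 424 and 4 in PBS lungs, and 287 for the response change with gapmer 3. With the muscle covariate they were 552 for gapmer 1 in PBS lungs and 392 for the response change with gapmer 3.

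Without each array in turn, Fgf7 ranged from 0.26 to 0.44 for gapmer 1 and from 0.23 to 0.33 for gapmer 3 in bleomycin lungs, from 0.42 to 0.59 for the response change with gapmer 1, and from -0.42 to -0.24 for bleomycin with gapmer 1. Hgf under the control gapmer ranged from 0.21 to 0.33. Under gapmer 3, Ptgs2 ranged from -0.48 to -0.26 and Met, by its brightest feature, from -2.64 to -0.24. Met passed there without replicate 2 (-2.575) or replicate 3 (-2.64) of the PBS lungs, fits that keep the single bright reading of replicate 1. The counts ranged from 1068 to 2273 for bleomycin with gapmer 1, from 1209 to 3092 and from 1775 to 3065 for gapmers 1 and 3 in bleomycin lungs, from 10 to 684 and from 2 to 30 in PBS lungs, and from 802 to 2576 and from 246 to 1161 for the response changes. Of 113 calls of the other named genes, 75 held under every alternative and 68 without each array; with only the groups compared, the gapmer 1 calls in bleomycin lungs of Fgf1, Etv4, Etv5, Fgfr2, Gab1, Plat, Nkd1, Ctnnb1, Ptger4, Smarca2, Hif1a and Fgfr1 were lost.

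The array measures messenger RNA and not microRNA, protein or translation; PBS groups of 3 limit what can be seen there, and the 3 Gsk3b features and the Met features set the calls of those genes.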
